A study of Picea abies with 19 samples.

Results

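The set described here holds 44 probes of a Norway spruce (Picea abies) array, measured in root ends. Each was above a detection level in at least 1 of genotypes 20, 35 and 52 and not in at least 1 other. These states held on every array of the 3 genotypes, at both ages. The 44 are 0.137% of the 32144 spruce probes on the array. The members were chosen by their detection state on the 10 arrays of genotypes 20, 35 and 52, the genotypes sampled at both ages. A probe was called on when the median intensity of its spot exceeded the median of the local background by more than 2 standard deviations (SD) of that background, and off otherwise. Each of the 3 genotypes had to be on on all of its arrays or off on all of them, with at least 1 genotype on and at least 1 off. A limit of the 200 brightest probes was set and was not reached.

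The study profiled short adventitious roots of rooted cuttings, taken as about 1 cm of the root end, 18 or 5 months after root initiation. Genotypes 20 and 35, titled fast, had 2 arrays each at 18 months and 1 array each at 5 months, and genotype 52, titled slow, had 2 arrays at each age. At 18 months alone there were 2 arrays each of genotypes 61, 70 and 76, titled slow, 2 of genotype 18, titled fast, and 1 of genotype 15, titled fast. Which trait was fast or slow is not stated in the labels. All the cuttings came from 1 nursery and grew in fertilised peat, and each array carried amplified RNA of several root ends of 1 genotype. The labels call these biological samples without saying whether each came from a cutting of its own, so the spread between arrays may be partly technical. A genotype is a single clone, and nothing here separates a clone from its cuttings' history.

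Cuttings of a clone share the genome of the tree they were taken from, so a state that holds in all arrays of a clone and differs between clones describes the clone as sampled. Adventitious roots arise from stem tissue of the cutting, and their fine ends take up water and mineral nutrients and host fungal partners. A spotted oligonucleotide reports how much labelled RNA binds it, which depends both on transcript amount and on how well the transcript matches the probe. Transcript amount and sequence match cannot be told apart from these values. In RNA from whole root ends, fewer cells of a type and less RNA per cell cannot be told apart either. The probes carry no gene names in the files used here and are given by ID, with no role stated and no check of root marker genes.

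Detection differed widely between arrays. Between 4944 and 18498 spruce probes were on per array, or 15.4% to 57.5%, while the median local background lay between 96 and 721 intensity units. The lowest share on belonged to replicate 2 of genotype 76, and the highest to 18-month replicate 1 of genotype 20, which also had the lowest background. The arrays were grouped into 3 scan periods by gaps between the dates their scanner files carry, and 3 was the most allowed. Genotype 76 alone makes up the third, so its values cannot be told apart from that period's. Its 2 arrays carry different dates and were joined whatever the gap between them. Each of genotypes 20, 35 and 52 has arrays in the first and the second period.

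The authors' deposited table of log2 values goes against the scanner files on which array is which. Of the 19 scanner files, 11 matched a column of that table at a Pearson correlation across probes of 0.834 to 0.934, where a match was counted above 0.8 and probes are not independent replicates. In 11 of 11 cases the column bore the name of another genotype, and 7 of the 10 arrays that chose the members are among them. The scanner files were used under their own labels throughout, no sample was reassigned, and every genotype named below rests on those labels. Under the column names of the authors' deposited table, 12 of the 44 probes were higher and 32 lower in the on genotypes, with a median difference of -0.84 on the log2 scale and 0 of 44 without overlap. Under the scanner labels all 44 were higher, with a median difference of 1.91, but the members were selected on those labels, so neither value says which naming is right.

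The probes that met the rule fell into 5 patterns, and more of them were on in genotypes 20 and 35 than in genotype 52. On in genotype 20 alone were 13 probes, in genotype 35 alone 13, and in genotypes 20 and 35 together 13. A further 3 were on in genotypes 20 and 52, and 2 in genotypes 35 and 52. No probe was on in genotype 52 alone, whose 4 arrays had 35.8% and 43.4% of all spruce probes on at 18 months and 34.9% and 27.5% at 5 months. Thus 29 members were on in genotype 20, 28 in genotype 35 and 5 in genotype 52. Genotype 52 had to keep its state over 4 arrays, and genotypes 20 and 35 over 3 each. Of all spruce probes, 9158 were on on every array of genotype 20, 8587 of genotype 35 and 7521 of genotype 52. Of the other spruce probes, 6236 (19.4%) were on on all 10 arrays, 12231 (38.1%) were off on all 10 and 13633 (42.4%) were mixed within at least 1 of the 3 genotypes.

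**Figure D1:**
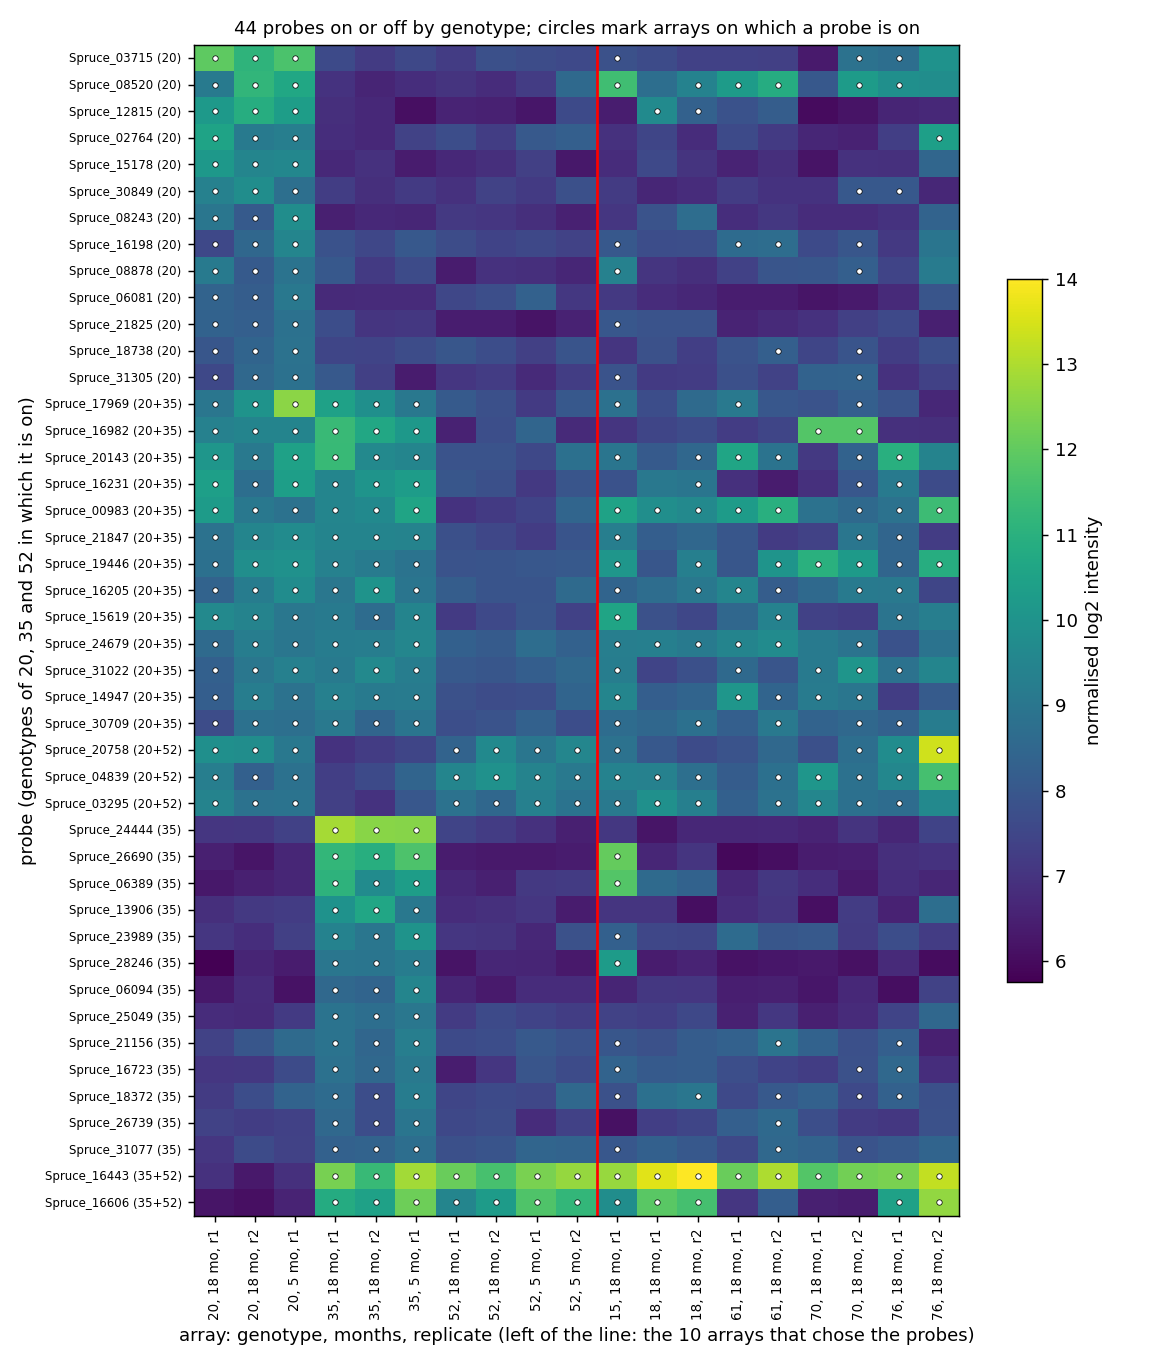
Normalised log2 intensity (colour) of the 44 probes (rows, grouped by the genotypes of 20, 35 and 52 in which they are on) on the 19 arrays (columns). Circles mark arrays on which a probe is on. Left of the red line are the 10 arrays that chose the probes, where the blocks of 13, 13 and 13 probes are fixed by the choice. Right of it are the 9 arrays of genotypes 15, 18, 61, 70 and 76, where 17 of the 44 keep 1 state within every genotype.

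Most members were dim. Their mean net intensity (spot median minus background median, in scanner units) over the arrays of the on genotypes ranged from 231.9 to 6414 with a median of 522.4, against a median of 1798 over the same 10 arrays for the probes on on all of them. Only 11 of the 44 exceeded 1000, and 20 lay below 500. The lowest on array and the highest off array did not overlap in net intensity for 31 members and overlapped for 13. In 12 members the lowest on array was at least 4 times the highest off array. Since the members were chosen on these arrays, the gaps are a description and carry no test.

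**Figure D2:**
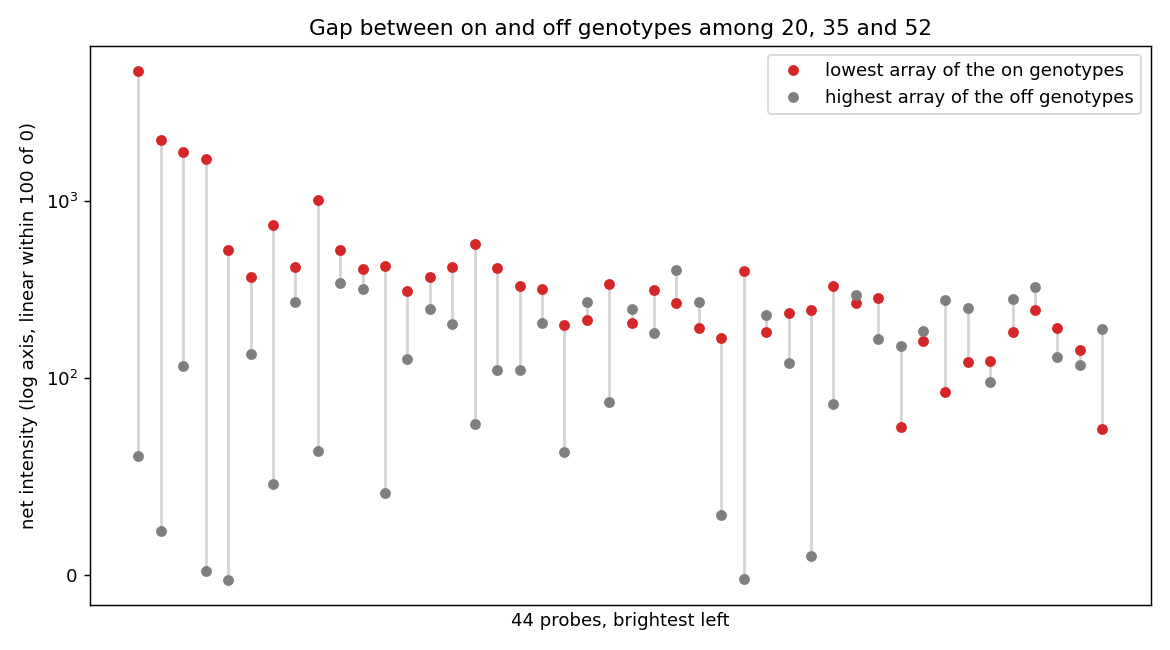
For each of the 44 probes, brightest on the left, the lowest net intensity among arrays of the on genotypes (red) and the highest among arrays of the off genotypes (grey), joined by a line. The vertical axis is logarithmic and linear within 100 of 0. Red lies above grey in 31 probes, and the wide gaps are mostly at the bright end.

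Members stood close to the detection level in many cases. In 30 of the 44, at least 1 of the 10 arrays lay within 0.5 background SD of it. Just inside were Spruce_06081, at 1.996 background SD on 18-month replicate 2 of genotype 52, and Spruce_08878, at 2.015 on 18-month replicate 2 of genotype 20. Just outside, by 1 array, were Spruce_14434, at 2.002 on 5-month replicate 2 of genotype 52, and Spruce_10182, at 1.998 on 18-month replicate 1 of genotype 35. In all, 512 probes missed the rule by 1 array. With a level of 1 SD the rule gave 52 probes, of which 11 are among the 44, and with 3 SD it gave 48, of which 16 are. The 6 members at all 3 levels were Spruce_16443, Spruce_26690, Spruce_16606, Spruce_06389, Spruce_12815 and Spruce_15178. Leaving out any 1 of the 10 arrays, which loosens the rule, gave between 53 and 179 probes.

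Spruce_24444 was the brightest member and the clearest of the probes on in genotype 35 alone. Its net intensity was 8236 and 5384 at 18 months and 5623 at 5 months in genotype 35, against a lowest, median and highest of -58.5, 11.3 and 60.5 on the 16 arrays of the other 7 genotypes. The signal of genotype 35 thus lay far above every other array, and no other genotype reached the detection level on any array. Of these other 7 genotypes, only 20 and 52 were sampled at 5 months. On the normalised log2 scale it averaged 12.65 ± 0.22 in genotype 35 (SD, n = 3) and 7.08 ± 0.32 in genotypes 20 and 52 (SD, n = 7), at least 26.2-fold higher. Such a bound sets the mean of the on arrays against, for each off array, the higher of the probe's own value and the lowest value among probes above the detection level. Over the 44 members these bounds ran from 1.21-fold to 26.2-fold with a median of 2.26-fold, and 26 members reached 2-fold and 9 reached 4-fold.

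Spruce_16443 showed the reverse, a probe missing from a single genotype. On the 16 arrays of the 7 on genotypes its lowest, median and highest net intensity were 2219, 5857 and 14210. In genotype 20 it read 22.8 and -21.97 at 18 months and 7.92 at 5 months, so the on and off arrays did not come near each other. It was the only member on on all 9 arrays of genotypes 15, 18, 61, 70 and 76, and the only one of the 44 off in exactly 1 of the 8 genotypes. Its normalised log2 value averaged 12.18 ± 0.56 in genotypes 35 and 52 (SD, n = 7) and 6.72 ± 0.34 in genotype 20 (SD, n = 3), at least 21.2-fold higher. In the authors' deposited table the same probe was at 3.65 or lower in 5 columns, named for genotypes 35, 52 and 70, and at 7.86 or higher in all others, those named for genotype 20 included.

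The second member on in genotypes 35 and 52, Spruce_16606, split the remaining genotypes. In genotype 35 it read 1949 and 1271 at 18 months and 4508 at 5 months, and in genotype 52 it read 526 and 1084 at 18 months and 3847 and 2184 at 5 months. In genotype 20 it read -2.16 and -28.4 at 18 months and -13.8 at 5 months. Genotypes 15, 18 and 76 were on, at 704, at 3911 and 2764, and at 1572 and 6052. Genotypes 61 and 70 were off, at 28.2 and 254.5 and at -39.6 and 0.753. No genotype was mixed, with 5 genotypes on, of which genotype 15 has a single array, and 3 off, and the dimmest on array, at 526, was above the brightest off array.

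**Figure D3:**
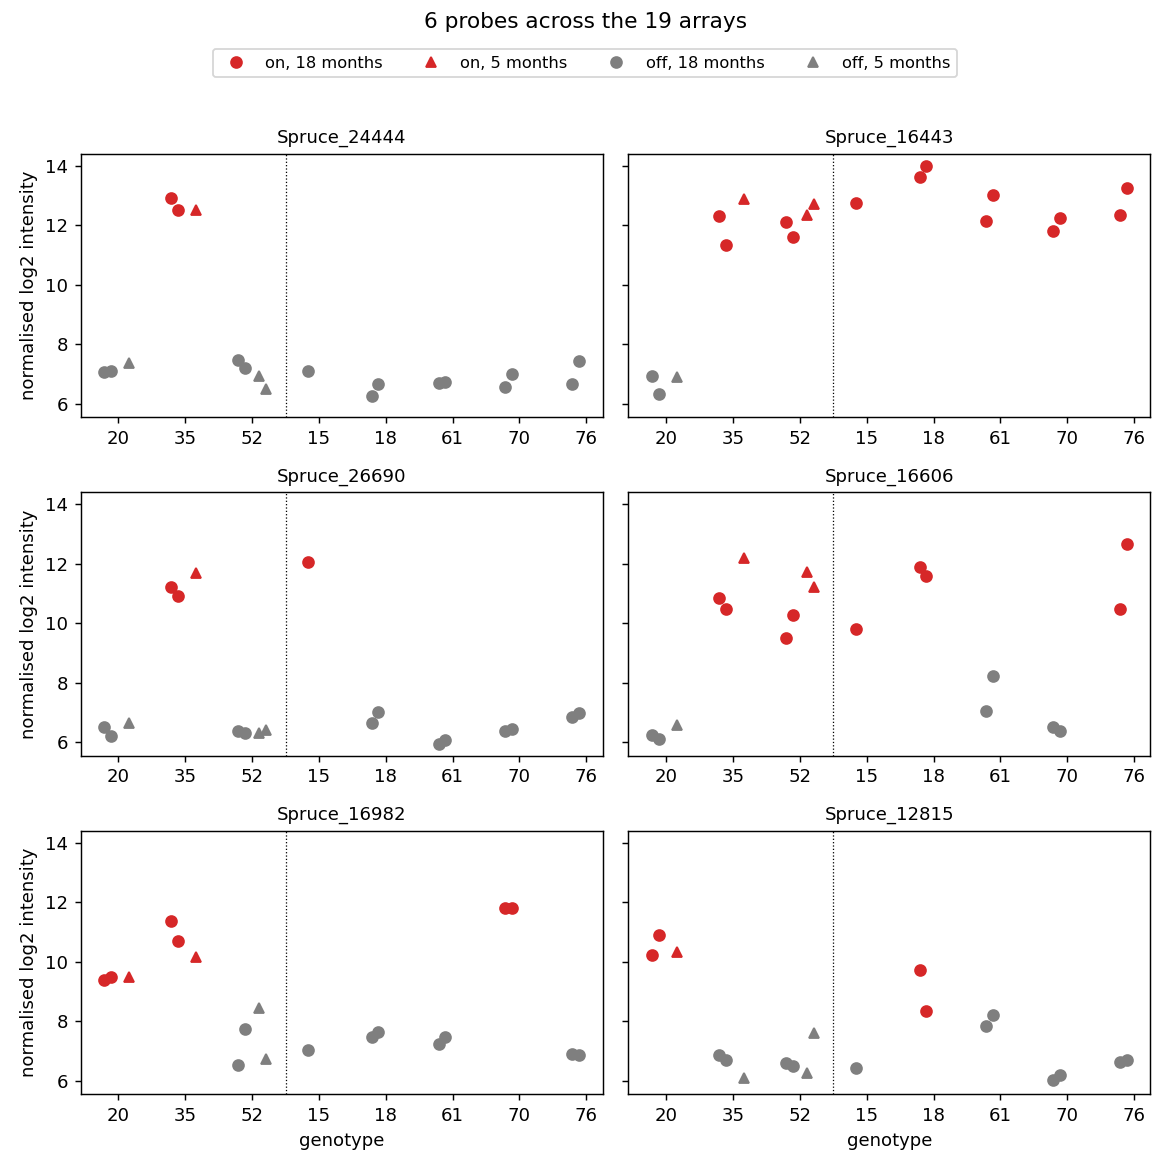
Normalised log2 intensity of 6 members on the 19 arrays, by genotype, with circles for 18 months, triangles for 5 months, red for on and grey for off. Left of the dotted line are the genotypes that chose the members and right of it the 5 others. Spruce_24444 is high in genotype 35 alone and Spruce_16443 is low in genotype 20 alone, while the other 4 divide the genotypes in other ways.

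Among the members on in genotype 35 alone, Spruce_26690 and Spruce_06389 were also on in genotype 15. Spruce_26690 had a net intensity of 2595 and 1722 at 18 months and 3225 at 5 months in genotype 35 and of 4029 in genotype 15, against -59.0, -24.3 and 12.7 (lowest, median and highest) on the 15 other arrays. Its on and off arrays were far apart. Spruce_06389 read 2349, 728 and 1254 on the same arrays of genotype 35 and 3347 in genotype 15, against -35.3, 6.68 and 325 on the 15 others, of which the brightest was an array of genotype 18. The dimmer Spruce_28246 read 469, 405 and 473 in genotype 35 and 1040 in genotype 15, with all 15 other arrays below 0. Spruce_23989, at 667, 421 and 949 in genotype 35, was called on in genotype 15 at 169, which is below the 352 that replicate 1 of genotype 61 gave while off. For these 4 probes genotype 15 rests on a single array. Spruce_13906 was on in genotype 35 alone, at 1034 and 1411 at 18 months and 432 at 5 months, against -61.8, 17.9 and 66.0 on the other 16 arrays.

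Among the members on in genotype 20 alone, Spruce_03715 was the brightest. It read 3510 and 1896 at 18 months and 3565 at 5 months in genotype 20, against 46.7, 81.1 and 117 (lowest, median and highest) on the 7 arrays of genotypes 35 and 52. In the other 5 genotypes no array came near genotype 20, and the highest reading was 390, on an array called off. There its state did not follow brightness. The array of genotype 15 was on at 90.6, while replicate 2 of genotype 76 was off at 390.

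Spruce_12815 and Spruce_15178 kept 1 state within each of the 8 genotypes. Spruce_12815 read 1009 and 1617 at 18 months and 1319 at 5 months in genotype 20 and was on in genotype 18, at 746 and 245. The 14 off arrays read -90.6, -4.28 and 252 (lowest, median and highest), so the dimmer array of genotype 18 lay below the brightest off array, one of genotype 61. Spruce_15178 read 947 and 569 at 18 months and 710 at 5 months in genotype 20, against -72.1, 10.6 and 84.0 on the 16 other arrays, and was on in genotype 20 alone of the 8. Spruce_08520, by contrast, read 423 and 1952 at 18 months and 1706 at 5 months in genotype 20. It was on in genotypes 15 and 61, at 2622 and at 1359 and 2202, and mixed in genotypes 18, 70 and 76. The dimmest members, Spruce_18738 at 144, 227 and 388 and Spruce_31305 at 74.1, 256 and 366 in genotype 20, overlapped or nearly overlapped the off arrays of genotypes 35 and 52, which reached 119 and 191.

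The 13 members on in genotypes 20 and 35 and off in genotype 52 had narrower gaps, none reaching 4 times between the lowest on and the highest off array. Spruce_16982 read 530 and 556 at 18 months and 646 at 5 months in genotype 20, and 2823 and 1478 at 18 months and 1062 at 5 months in genotype 35. In genotype 52 it read -6.21 and 88.8 at 18 months and 346 and -8.22 at 5 months. Genotype 70 was on at 3476 and 3082, the highest readings of the probe, and the 7 arrays of genotypes 15, 18, 61 and 76 lay between -41.3 and 95.0. Spruce_20143 read 906 and 414 at 18 months and 1478 at 5 months in genotype 20, 2710 and 675 at 18 months and 633 at 5 months in genotype 35, and between 93.3 and 319 in genotype 52. It was on in genotypes 15 and 61 and mixed in genotypes 18, 70 and 76, reaching 2186 on replicate 1 of genotype 76.

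Others of the 13 varied widely among arrays of an on genotype. In genotype 20, Spruce_17969 read 371 and 817 at 18 months and 6630 at 5 months. In genotype 35 it read 1519 and 784 at 18 months and 430 at 5 months, and in genotype 52 between 55.0 and 138. Spruce_16231 read 1164 and 310 at 18 months and 1376 at 5 months in genotype 20, and 726 and 906 at 18 months and 1210 at 5 months in genotype 35, against 64.0 to 129 in genotype 52. Spruce_15619, Spruce_31022 and Spruce_21847 reached at most 644, 664 and 835 in genotypes 20 and 35. Of these, Spruce_31022 reached 271 in genotype 52, above its lowest on array at 193.

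The 3 members on in genotypes 20 and 52 and off in genotype 35 were dim in the genotypes that chose them. Spruce_20758 read 763 and 714 at 18 months and 469 at 5 months in genotype 20, and 200 and 674 at 18 months and 544 and 624 at 5 months in genotype 52. In genotype 35 it read 26.8 and 49.9 at 18 months and 62.8 at 5 months. Its highest reading lay elsewhere, with 11170 on replicate 2 of genotype 76 and 893 on replicate 1. Replicate 2 is the array with the fewest probes on. Spruce_04839 and Spruce_03295 were on on 8 and 7 of the 9 arrays of the other 5 genotypes. Their medians over those on arrays were 559 and 483.

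In the 5 genotypes the rule did not use, states were read from arrays that played no part in the choice. Genotype 15 had 30 of the 44 on (68.2%, against 47.7% of all spruce probes), from its single array. Genotype 18 had 7 on, 30 off and 7 mixed between its arrays, genotype 61 had 8, 24 and 12, genotype 70 had 7, 18 and 19, and genotype 76 had 6, 23 and 15. Mixed states took 15.9% of members in genotype 18, 27.3% in genotype 61, 43.2% in genotype 70 and 34.1% in genotype 76. Over all spruce probes the mixed shares were 10.1%, 14.5%, 24.4% and 26.2% in the same order, so each genotype split a larger share of the members than of all probes. This was not tested.

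Counts of members on followed the share of all probes on. The arrays of genotype 70 had 7 and 26 members on, with 24.9% and 48% of all probes on and median backgrounds of 652 and 161. Those of genotype 76 had 20 and 7 on, with 40% and 15.4% of all probes on. Those of genotype 61 had 10 and 18 on, and those of genotype 18 had 7 and 14. In each of these genotypes the array with more probes on overall also had more members on, and the part of the array's background in these states was not tested.

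**Figure D4:**
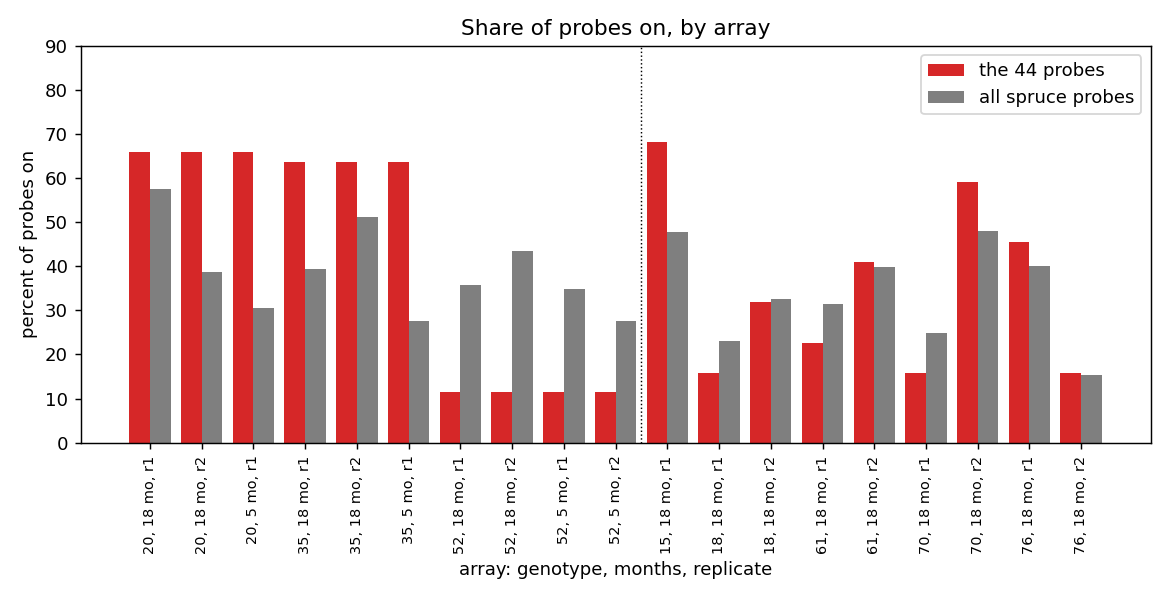
Percent of the 44 probes (red) and of all spruce probes (grey) that are on, by array. On the 10 arrays left of the dotted line the share of the 44 is fixed by the choice. Right of it, both arrays of genotype 70 differ from each other as much as arrays of different genotypes, with 15.9% and 59.1% of the 44 on.

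Of the 44 members, 17 kept 1 state within each of the 5 genotypes, counting the single array of genotype 15 as its state. Of these 17, 7 were off on all 9 arrays, 1 was on on all 9 and 9 were on in some and off in others. Over all 32144 spruce probes, 14428 kept 1 state in each of the 8 genotypes, but 11318 of these were off and 2613 on throughout, leaving 497 that divided the genotypes. The 17 members are among those 497. On in exactly 1 of the 8 genotypes were 7 members. Genotype 35 was that genotype for Spruce_24444, Spruce_13906, Spruce_06094 and Spruce_25049, and genotype 20 for Spruce_15178, Spruce_08243 and Spruce_06081. Shares of all probes for the 5 genotypes alone, and for probes on in exactly 1 of 8, are not given here. The counts of 17 and 7 thus describe the members only.

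The other 9 gave 6 groupings of genotypes. Genotypes 35 and 15 were on together for Spruce_26690, Spruce_06389, Spruce_23989 and Spruce_28246, and genotypes 20 and 15 for Spruce_21825. Genotypes 20 and 18 were on together for Spruce_12815, and genotypes 20, 35 and 70 for Spruce_16982. Spruce_14947 was on in genotypes 15, 20, 35, 61 and 70, and off in genotypes 18, 52 and 76. Its on arrays ran from 183 to 1144 and its off arrays from 30.5 to 235, so they overlapped. Spruce_16606, described above, had genotypes 15, 18, 35, 52 and 76 on.

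Over all 44 members, arrays of the same genotype shared about as many states as arrays of different genotypes. Within genotypes 18, 61, 70 and 76, both arrays had the same state for 84.1%, 72.7%, 56.8% and 65.9% of the 44 members, a mean of 69.9% ± 11.5 (SD, n = 4 genotypes). Between arrays of different genotypes the mean was 68.8% over 24 pairs, with a range of 47.7% to 86.4%. The within-genotype values lie inside the between-genotype range. Over all spruce probes the means were 81.2% within and 83% between genotypes. For the 12 members with a gap of at least 4 times, the means were 95.8% within and 86.8% between genotypes. For the 32 others they were 60.2% and 62%. Pairs share arrays, so no test was made.

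Most of the 12 members with a gap of at least 4 times had the same state on all 8 arrays of these 4 genotypes. Of the 12, 8 were off on all 8 arrays and Spruce_16443 was on on all 8. The other 3, Spruce_16606, Spruce_12815 and Spruce_03715, were on on some of these arrays and off on others. Off was also the common state of all spruce probes. It held on both arrays for 67.1% in genotype 18, 57% in genotype 61, 51.4% in genotype 70 and 59.2% in genotype 76. The share of all probes off on all 8 arrays is not given here, so the count describes the 12 members only.

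**Figure D5:**
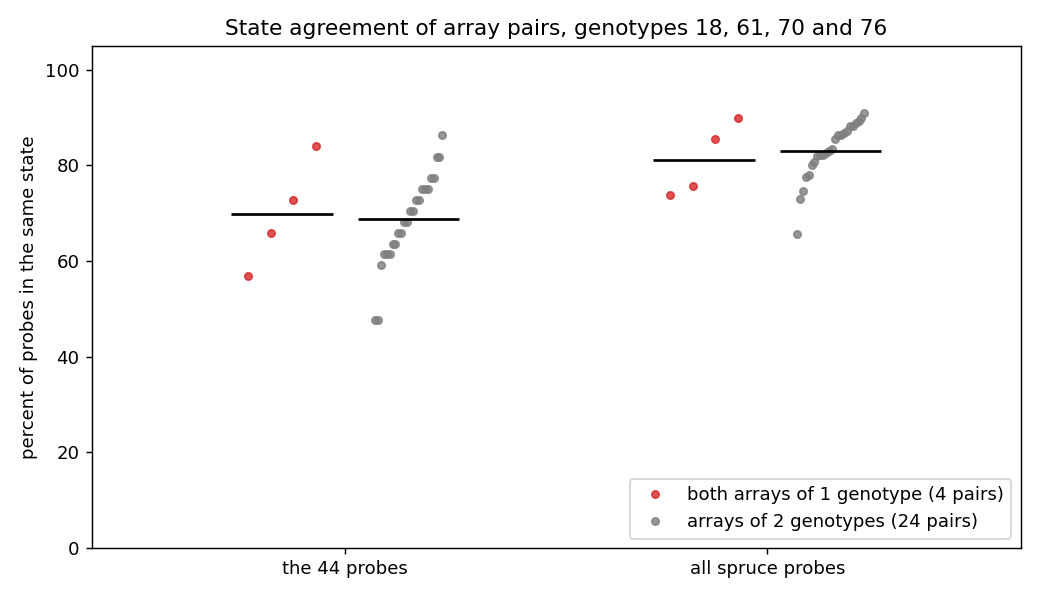
Percent of probes with the same state on a pair of arrays, for both arrays of 1 genotype (red, 4 pairs) and for arrays of 2 genotypes (grey, 24 pairs), among genotypes 18, 61, 70 and 76. Black bars are means. For the 44 probes the means are 69.9% within and 68.8% between genotypes, and for all spruce probes 81.2% and 83%.

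Whether intensity differed among genotypes 15, 18, 61, 70 and 76 was tested with limma's moderated F-test over all spruce probes on on at least 2 of their 9 arrays. Of the 44 members 30 passed this filter and 14 did not. No probe was called at an adjusted p below 0.05 by limma with Benjamini-Hochberg adjustment, in 0 of 15638 tested (0%), and so no member was. An unadjusted p below 0.05 was reached by 1136 probes (7.26%), and by 5 of the 30 members (16.7%). Without the filter, 0 of 32144 were called (0%) and 2016 had an unadjusted p below 0.05 (6.27%), among them 12 of the 44 members. The comparison had 4 residual degrees of freedom.

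Spruce_16982 had the lowest p of the members, 2.3e-05 in limma's test, with an adjusted p of 0.102. On the normalised log2 scale it averaged 11.81 in genotype 70 (n = 2) and 7.23 on the 7 arrays of the other 4 genotypes, at least 11.4-fold higher. Spruce_16606 followed at 0.000131, with an adjusted p of 0.226 from limma, and averaged 11.28 on the 5 arrays of genotypes 15, 18 and 76 and 7.04 on the 4 arrays of genotypes 61 and 70, at least 8.92-fold higher. Neither passed the threshold, although their arrays did not overlap between states. Spruce_12815, Spruce_15619 and Spruce_20758 had unadjusted p-values of 0.00586, 0.00628 and 0.0243 in limma, with adjusted values between 0.562 and 0.615. Spruce_16231, Spruce_31022 and Spruce_20143 came next at unadjusted p-values of 0.0551, 0.0566 and 0.0613. Spruce_16982 and Spruce_12815 were each on on 2 of the 9 arrays, those of genotype 70 and of genotype 18. Each thus passed the filter only through the genotype in which it was high. Without the filter their adjusted p-values from limma's F-test were 0.111 and 0.498.

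How many probes passed depended on which arrays were used. Without replicate 1 of genotype 76, whose file names its channel differently from the others, limma called 2810 of 15244 probes (18.4%), and 7 of the members at an adjusted p below 0.05. These were Spruce_16982, Spruce_16606, Spruce_20758, Spruce_15619, Spruce_12815, Spruce_00983 and Spruce_08878. That setting leaves replicate 2 of genotype 76, the array with the fewest probes on, as that genotype's lone sample, which is assumed to vary like the other genotypes. Without genotype 76 altogether, 38 of 15144 were called (0.251%), with Spruce_16982 and Spruce_16606 the only members among them. Within the second scan period, which holds both arrays of genotype 18 and 1 each of genotypes 61 and 70, 1206 of 12599 were called (9.57%) with 1 residual degree of freedom, and 6 members passed. With scan period as a term, 0 members passed, with genotype 76 and without it. Where arrays were left out, the filter was applied anew to the arrays kept. Spruce_16982 passed it only through genotype 70 wherever it was called, and Spruce_12815 only through genotype 18. Spruce_16606 did so through genotype 18 within the second scan period. No fit without the filter was made for these settings, so these calls are no support for the members.

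Spruce_26690 and Spruce_06389, left out by the filter, showed large differences that rest on genotype 15 alone. The first stood at 12.05 on the array of genotype 15 and averaged 6.54 on the 8 others on the normalised log2 scale, at least 13.2-fold higher. For Spruce_06389 the values were 11.81 and 7.18, at least 10.9-fold higher. With 1 array above the detection level, both fell below the filter and have no adjusted p in that fit.

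Growth class was compared over the 5 genotype means, slow (61, 70 and 76) against fast (15 and 18), since 44 members chosen in 2 fast genotypes and 1 slow genotype could follow class. None of 15638 probes was called by limma at an adjusted p below 0.05 (0%). An unadjusted p below 0.05 was reached by 180 (1.15%), and by 0 of the 30 members tested. Spruce_21847 had the lowest p of the members, at 0.0992 in limma, or 1 after adjustment. Its mean was 7.86 in the slow and 8.82 in the fast genotypes, a difference of -0.96 ± 0.52 (SE). Spruce_16606 had means of 8.55 in the slow and 10.76 in the fast genotypes, a difference of -2.21 ± 1.35 (SE). It was -3.73 without genotype 76 and turned to 1.42 under the column names of the authors' deposited table. For Spruce_16443 and Spruce_16723 the differences were -0.82 ± 0.55 and -0.65 ± 0.46 (SE). Without the single array of genotype 15 the difference was -0.51 for Spruce_21847 and -1.35 for Spruce_16443.

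The 13 members on in both fast genotypes 20 and 35 and off in slow genotype 52 split the fast genotypes among the other 5. On readings made up 42 of 78 (53.8%) in slow genotypes 61, 70 and 76 and 20 of 39 (51.3%) in fast genotypes 15 and 18. The fast share rests on the single array of genotype 15, with 11 of 13 on, while genotype 18 had 9 of 26 on (34.6%), below the 57.7%, 61.5% and 42.3% of genotypes 61, 70 and 76. For all 44 members the shares were 33.3% in the slow and 38.6% in the fast genotypes, and without genotype 15 the fast share was 23.9%, which turns the order. For all spruce probes the share was 33.3% in the slow and 34.5% in the fast genotypes, and 27.8% in genotype 18 alone. None of the 13 was on in genotypes 15 and 18 and off in genotypes 61, 70 and 76.

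Between ages, the rule allowed no change of state in genotypes 20, 35 and 52, but levels within the on genotypes could vary. With 1 or 2 arrays per genotype and age, differences are given as means of normalised log2 values, 18 minus 5 months, without a test. The members were chosen on these same arrays, so the choice may shape how they differ from all probes. In genotype 20 the median background was 428 at 5 months, against 96 and 256 at 18 months. A higher background can raise the intensity a dim probe needs to be on, and its part here was not tested. In genotype 20 the median over its 29 on members was -0.53, with 8 higher and 21 lower at 18 months, against -0.05 over the 9158 probes on on all its arrays, of which 47.1% were higher. In genotype 35 the median over 28 members was -0.27, with 11 higher (39.3%) and 17 lower, against -0.18 over 8587 probes with 39.8% higher, so the members' share was that of all probes. In genotype 52 it was -0.42 over 5 members, 1 higher and 4 lower, against -0.05 over 7521 probes with 47.6% higher. Replicate 2 of each age of genotype 52 shares a number in its title, whose meaning the labels do not give, and over that pair alone the median was -0.37, with 2 of 5 higher. In genotype 20 the differences ran from -3.09, for Spruce_17969, to 0.83. The 5-month value is a single array in genotypes 20 and 35. In genotype 35 both 18-month arrays belong to the first scan period and the 5-month array to the second. Age and scan period cannot be told apart there. In genotype 20 the 5-month array belongs to the first period, and the 18-month arrays to the first and the second.

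The members were spread over the array. They lay in 28 of its 48 blocks, with at most 4 in a block, and 0 pairs of members were on adjacent spots.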

How the data were processed

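Per the labels, each array carried amplified, dye-labelled RNA of 1 sample. Per the file headers, the deposited scanner files hold intensity values, the median pixel of each of 34992 spots and of its local background with that background's standard deviation, not normalised. Of the spots, 32144 carry a spruce probe and 2848 are controls. The deposited table holds log2 values whose scaling, centring and other processing the sources used here do not give, and whose column medians run from 1.61 to 5.29; it served as an alternative, and 0 of its columns lacked a sample.

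Background was corrected with normexp (offset 50) in limma 3.58.1 under R 4.3.3. After removal of controls, quantile normalisation of log2 values covered all 19 arrays. Probes on on at least 2 of the 9 arrays of genotypes 15, 18, 61, 70 and 76 were tested with Benjamini-Hochberg adjustment at 0.05. The F-test over genotypes has no direction, and the growth class comparison was two-sided. The fits were tested on simulated data. The number of arrays limits precision. Alternatives concerned background, normalisation, filter, arrays, genotypes, scan period, detection level and source of values.

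Named probes were the 3 brightest per pattern, the 8 with the lowest F-test p, the 6 brightest that kept 1 state in each of 8 genotypes with both states among the other 5, the last 2 by brightness, the 2 brightest on (1 exists) or off on all 9 arrays, and the 4 with the lowest class p. Others are named where a count of 9 or fewer lists its members, or as the 2 nearest the detection level inside and outside the rule. These others were chosen after their values were seen. The members and lists were chosen with earlier results of these data known.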

Additional observations from a re-analysis of the deposited data

Results flagged for a closer look

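In 7 of the 18 members on in 2 genotypes, every 18-month array lay above the 5-month array or arrays in 1 genotype and below in the other. All 7 are among the 13 on in genotypes 20 and 35 (53.8%), and over all 7336 probes on on every array of both genotypes 2039 (27.8%) met the same condition. In genotype 35 age cannot be told apart from scan period, so opposite orders in the 2 genotypes cannot be assigned to age. The members were chosen on these same arrays, so the choice may shape their share of 53.8%. The differences below are 18 minus 5 months on the normalised log2 scale, each against the single 5-month array of its genotype. The difference between genotypes was not tested. Spruce_17969 stood at -3.09 in genotype 20 and 1.11 in genotype 35. For Spruce_20143 the values were -0.91 in genotype 20 and 0.97 in genotype 35, and for Spruce_16205 -0.98 and 0.54 in the same order. Spruce_19446 stood at -0.61 in genotype 20 and 0.37 in genotype 35, and Spruce_21847 at -0.58 and 0.05. The opposite order was seen in Spruce_00983, with 0.79 in genotype 20 and -0.98 in genotype 35, and in Spruce_15619, with 0.52 and -0.6.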

How the results depend on the processing

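The number of probes that met the rule was 633 with 18-month arrays alone, all 44 among them, and ran from 53 to 179 when 1 of the 10 arrays was left out. By construction fewer arrays make the rule looser. It exceeded 1.5 times 44 without 18-month replicate 1 (119) or 2 (78) or the 5-month array (152) of genotype 20, without 18-month replicate 2 (96) or the 5-month array (179) of genotype 35, and without 18-month replicate 2 (78) or 5-month replicate 2 (77) of genotype 52. Calls by limma's F-test, 0 over all probes, became 18 in the authors' deposited table, 38 without genotype 76 and 1206 within the second scan period, an alternative added after seeing the data. They ran from 0 to 2810 when 1 array was left out, with 1 without the array of genotype 15 and 2810 without replicate 1 of genotype 76. Member calls became 2 without genotype 76, 6 within the second scan period and 0 to 7 when 1 array was left out. The cause was not tested. Within the first scan period no residual degrees of freedom remained. Median scaling, the stricter filter, scan period as a term and leaving out background correction each left 0 calls in the F-test. Growth class had 0 calls under each alternative run. Agreement within genotypes was 71.6% with a level of 1 SD, 66.1% with 3 SD and 71.2% without genotype 76, against 70.4%, 67.2% and 68.9% between genotypes. Taking all probes that meet the rule changed nothing, since the limit of 200 was not reached. No paired analysis was possible because the labels give no replicate number that pairs arrays across genotypes. The share of readings on without genotype 15 and the age difference over replicate 2 of genotype 52, given above, were added after seeing the data.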

Other observations

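By ID, 7 of the 44 members (15.9%) lie between Spruce_16000 and the next 1000 IDs, a run that holds 3.11% of all spruce probes; the second fullest such run holds 3 members. The labels and files do not explain the order of the IDs.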
